A study of Mus musculus with 12 samples.

Results

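The 38 genes described here are used by cells that divide. Of these, 16 serve DNA replication in S phase and 22 serve mitosis, and both sets were kept apart throughout. They were listed by symbol and matched to the array features by gene symbol, and all 38 were found among the 27381 features measured. Ccnb1 was named through RefSeq by its Entrez number, since the platform annotation used here did not list it.

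Blood RNA of C57B16/J mice (strain as spelled in the labels) was measured on 12 arrays (Mouse Gene 2.0 ST), and every array took the pooled RNA of 7 mice. The mice were water-deprived, head-fixed and placed on a ball floating on air. Trained mice learned to answer a visual cue to obtain water, while untrained mice were handled alike and received water at random times. The labels name 16 male and 18 female mice, which had surgery at 8 to 12 weeks of age and then recovered for 7 days.

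Each of 4 groups had 3 arrays: trained post, untrained post, trained pre and untrained pre. Post blood was drawn from the trunk at death, once the trained mouse of a pair had reached the learning criterion, and pre blood was drawn from a sinus under the skull during surgery, before any training. Time of collection, age, site of bleeding, anaesthesia and water deprivation therefore cannot be told apart in any comparison of post with pre. The first 2 arrays of every group form batch 1, and the third forms batch 2, a repeat of the experiment. The methods describe the batch 1 pools of a group as unique. The labels, however, count 34 mice in all and do not list the animals of each pool. Trained and untrained mice were bled both before and after training, and 3 pools of 7 take 21 mice per group. By the count of the labels, pools may therefore share animals. The paper counts more mice, enough for 3 separate pools per group, so pools of a group need not share any. Pre and post pools may still hold the same mice. Which animals each pool held is not given. The p-values below measure the spread between pools, which were fitted as independent. Pools were depleted of globin transcripts before labelling.

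A cell that enters the cycle first lets E2F transcription factors switch on the genes for DNA replication, among them the MCM helicase, the sliding clamp and the enzymes that make deoxynucleotides. Later, cyclin A and cyclin B with the kinase CDK1 drive the cell into mitosis, when motors, checkpoint proteins and the anaphase-promoting complex separate the chromosomes. Most leukocytes in circulation are resting cells, while red cell and platelet precursors multiply in the marrow and spleen. Young red cells and platelets have no nucleus but carry transcripts from those precursors.

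Promoters of cell cycle genes often carry motifs that are known from work on dividing cells. Those of 5 genes are shown so that their letters can be read beside the results. Of these, 4 were picked by p-value and Mcm6 by its number of E2F matches. The sets themselves were made by function, not by motif. RefSeq sequences (GRCm38.p6), running from 250 bases before to 50 after each start, were matched for 31 of the 38 genes, in 33 promoters. Aurkb, Ccna2, Ccne2, Gins2, Kif20a, Mcm4 and Tpx2 were not matched. The letters TTTGAA (the cell cycle homology region of mitotic promoters), CCAAT (the binding letters of NF-Y) and TTTCCCGC, TTTCGCGC, TTTGGCGC or TTTGCCGC (E2F motifs) were searched on both strands, and E2F matches may overlap each other. The 250 bases before the start are given 5′ to 3′ with every match in capitals, for 3 mitotic and 2 S-phase genes.
Mki67, chr7:135716380-135716629, minus strand: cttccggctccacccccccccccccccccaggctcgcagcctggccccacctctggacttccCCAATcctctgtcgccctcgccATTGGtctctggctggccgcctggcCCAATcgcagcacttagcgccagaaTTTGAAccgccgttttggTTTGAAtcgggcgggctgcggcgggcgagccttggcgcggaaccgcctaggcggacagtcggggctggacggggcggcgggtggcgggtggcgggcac
Ccnb2, chr9:70421555-70421804, minus strand: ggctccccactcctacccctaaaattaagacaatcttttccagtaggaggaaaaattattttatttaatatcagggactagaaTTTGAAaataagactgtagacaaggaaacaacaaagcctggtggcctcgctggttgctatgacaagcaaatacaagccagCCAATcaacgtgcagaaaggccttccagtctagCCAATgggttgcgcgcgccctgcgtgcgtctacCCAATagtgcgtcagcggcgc
Kif11, chr19:37376132-37376381, plus strand: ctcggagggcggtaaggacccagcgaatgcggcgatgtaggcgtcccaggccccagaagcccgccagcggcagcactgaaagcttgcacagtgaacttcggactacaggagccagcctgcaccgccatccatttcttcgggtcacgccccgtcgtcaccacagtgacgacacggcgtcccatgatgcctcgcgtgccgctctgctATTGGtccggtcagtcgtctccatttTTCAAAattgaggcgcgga
Cdc6, chr11:98907901-98908150, plus strand: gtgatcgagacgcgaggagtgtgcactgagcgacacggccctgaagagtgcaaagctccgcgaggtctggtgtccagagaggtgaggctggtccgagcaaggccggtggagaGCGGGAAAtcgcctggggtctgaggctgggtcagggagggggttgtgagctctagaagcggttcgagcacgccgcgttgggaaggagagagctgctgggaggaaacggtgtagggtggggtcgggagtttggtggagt
Mcm6, chr1:128359706-128359955, minus strand: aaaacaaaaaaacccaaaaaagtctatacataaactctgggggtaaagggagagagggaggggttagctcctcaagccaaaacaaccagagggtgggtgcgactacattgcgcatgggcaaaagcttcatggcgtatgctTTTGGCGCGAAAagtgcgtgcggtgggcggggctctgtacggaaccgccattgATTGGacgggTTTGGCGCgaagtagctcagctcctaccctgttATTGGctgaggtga

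Mki67, Ccnb2 and Kif11 are the mitotic genes with the smallest p-values between post and pre arrays. With positions counted from the start site on either strand, Mki67 has TTTGAA at -116 and -98, with 3 CCAAT matches further upstream, and Kif11 has TTTGAA at -19 and CCAAT at -45. Ccnb2 has 3 CCAAT matches, TTTGAA at -167, and another TTTGAA at 5, beyond the bases shown. Cdc6, the S-phase gene with the smallest p-value in that comparison, has a single E2F match at -138. Mcm6 has 3 E2F matches, of which 2 overlap, and is shown because no other matched S-phase gene has as many. Rrm1, next to Cdc6 by p-value, has 0 E2F and 2 CCAAT matches and is not shown. Over the whole windows, TTTGAA was found in 14 of 19 mitotic promoters (73.7%), in 2 of 14 S-phase promoters (14.3%) and in 17.9% of all 32851 promoters. E2F letters were found in 1 of 19 mitotic promoters (5.26%), in 5 of 14 S-phase promoters (35.7%) and in 2.26% of all. CCAAT was found in 17 of 19 mitotic promoters (89.5%), in 10 of 14 S-phase promoters (71.4%) and in 37.4% of all, and the combination of TTTGAA and CCAAT in 14 of 19, 2 of 14 and 6.95%. Birc5, Ccne1, Nusap1, Tk1 and Tyms held none of these letters in the window. These matches describe the letters only, and no binding was measured.

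All values below are log2 intensities after RMA, and differences are log2 differences with their standard errors (SE). A gene's values may be compared between arrays, but not with those of another gene, because probe sets differ in brightness. Of the S-phase genes, 15 of 16 had a mean at or above the median of all feature means (1.47), the exception being Gins2, a subunit of the replicative helicase. Of the mitotic genes, 19 of 22 did, the exceptions being Birc5 (survivin), Bub1 and Kif20a. Gene means ranged from 1.20 to 5.67 over the S-phase set (median 2.21) and from 1.00 to 8.95 over the mitotic set (median 2.74). The SD over the 12 arrays had a median of 0.20 for S-phase genes and 0.23 for mitotic genes, against 0.20 over all features and 0.23 over features at or above the median level. The proliferation genes therefore varied between pools about as much as the rest of the array. Array medians lay between 1.44 and 1.52, and pairs of arrays correlated at 0.947 to 0.978.

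**Figure D1:**
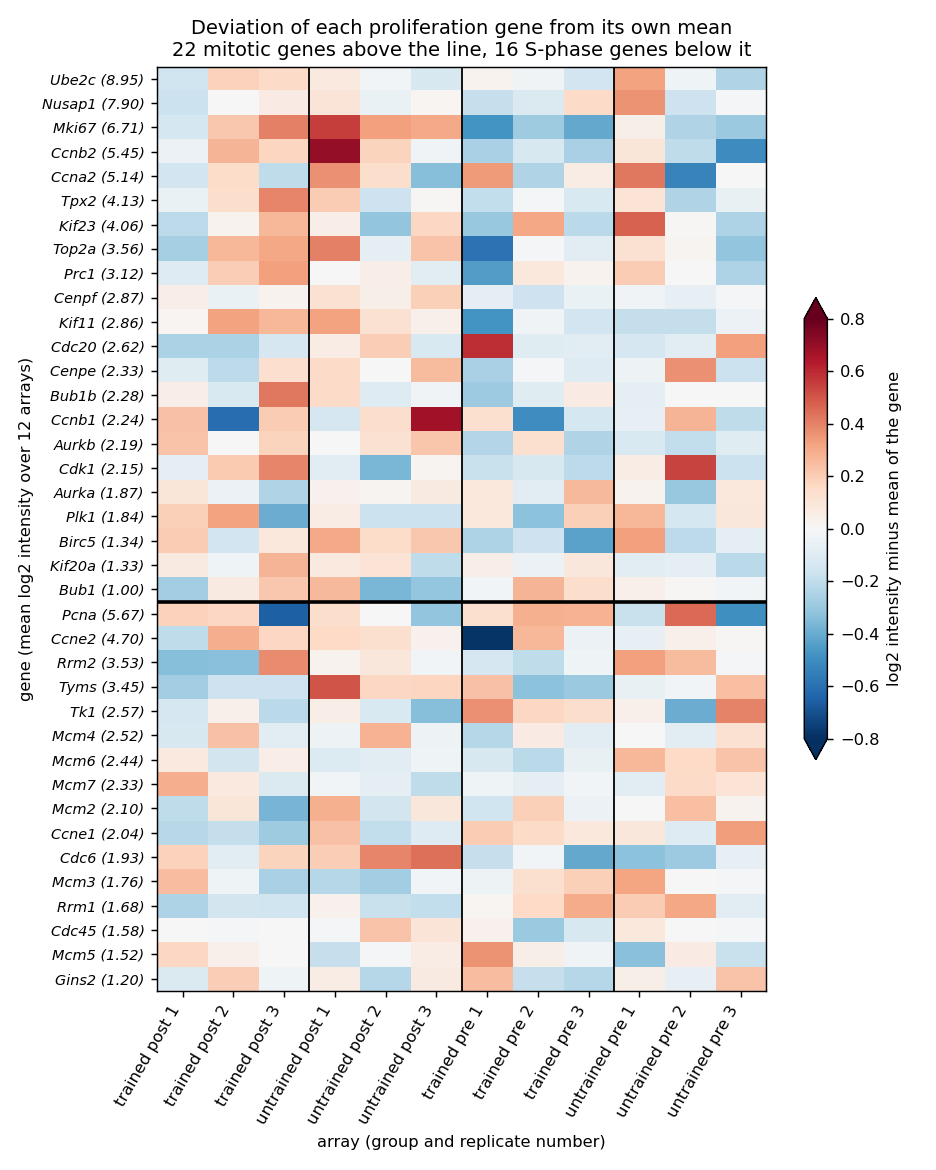
Deviation of each of the 38 genes (rows, with the mean log2 intensity over 12 arrays in brackets) from its own mean, for each array (columns, trained post, untrained post, trained pre, untrained pre, each with replicates 1 to 3). Red marks values above and blue values below the gene's mean. Red is most frequent among mitotic genes in untrained post 1 and trained post 3, where 19 and 18 of 22 lie above their own means.

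The mitotic genes with the highest means were Ube2c, Nusap1, Mki67, Ccnb2 and Ccna2. Ube2c, the ubiquitin-conjugating enzyme of the anaphase-promoting complex, read 8.79, 9.14 and 9.11 in trained post pools, 9.03, 8.93 and 8.83 in untrained post, 8.98, 8.93 and 8.80 in trained pre and 9.28, 8.92 and 8.71 in untrained pre (replicates 1 to 3 in each group here and below). All 4 groups of Ube2c overlapped. Nusap1, which binds spindle microtubules, read 7.72, 7.90 and 7.96 in trained post, 8.00, 7.84 and 7.91 in untrained post, 7.71, 7.78 and 8.05 in trained pre and 8.26, 7.73 and 7.88 in untrained pre. Its groups overlapped as well. Ccna2, which encodes cyclin A2, read 4.99, 5.29 and 4.94 in trained post, 5.51, 5.29 and 4.80 in untrained post, 5.49, 4.90 and 5.21 in trained pre and 5.57, 4.61 and 5.14 in untrained pre. The lowest and the highest Ccna2 values both came from untrained pre pools, and its group ranges overlapped.

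The S-phase genes with the highest means were Pcna, Ccne2, Rrm2, Tyms and Tk1. Pcna, the sliding clamp of DNA polymerase, read 5.86, 5.84 and 5.02 in trained post, 5.81, 5.67 and 5.36 in untrained post, 5.80, 5.96 and 5.95 in trained pre and 5.49, 6.13 and 5.18 in untrained pre. The 3 trained pre pools lay close together, and each other group had its lowest Pcna value in its batch 2 array. Ccne2, or cyclin E2, read 4.50, 4.99 and 4.87 in trained post, 4.86, 4.83 and 4.74 in untrained post, 3.92, 4.96 and 4.66 in trained pre and 4.64, 4.74 and 4.71 in untrained pre. The low value of trained pre 1 stood apart from the other 11 Ccne2 values. Rrm2, the regulated subunit of ribonucleotide reductase, read 3.19, 3.19 and 3.91 in trained post, 3.55, 3.62 and 3.50 in untrained post, 3.39, 3.33 and 3.49 in trained pre and 3.86, 3.78 and 3.52 in untrained pre. Trained post thus held the lowest and the highest Rrm2 values. Tk1, thymidine kinase of the salvage route, read 2.43, 2.61 and 2.36 in trained post, 2.62, 2.45 and 2.23 in untrained post, 2.94, 2.73 and 2.71 in trained pre and 2.61, 2.17 and 2.97 in untrained pre. The trained pre pools were above the trained post pools for Tk1, while the untrained pre pools spanned the whole range.

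The question of the study was how blood differed after learning. Between trained post and untrained post pools, 0 of the 38 proliferation genes passed an adjusted p of 0.05 in limma (Benjamini-Hochberg over all features), and 0% of all features did. At an unadjusted p under 0.05 it was 1 of 38, Tyms, where 6.41% of all features passed. Tyms, thymidylate synthase, read 3.17, 3.28 and 3.28 in trained post pools, against 3.95, 3.61 and 3.62 in untrained post pools, and 3.68, 3.12 and 3.15 in trained pre against 3.38, 3.42 and 3.69 in untrained pre. Every trained post value lay below every untrained post value, with a difference of -0.48 (SE 0.17; limma adjusted p = 0.723), and of -0.56 in batch 1 and -0.34 in batch 2. The Tyms difference was not past the threshold under any of the alternatives, whose adjusted p ranged between 0.574 and 0.961.

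The next smallest p-value among the S-phase genes belonged to Cdc6, and the 2 smallest among the mitotic genes to Cdk1 and Mki67. The loading factor Cdc6 differed by -0.25 (SE 0.14; limma adjusted p = 0.828) and the mitotic kinase Cdk1 by 0.32 (SE 0.19; limma adjusted p = 0.828). Mki67, the gene of the Ki-67 protein that coats mitotic chromosomes, differed by -0.24 (SE 0.16; limma adjusted p = 0.841), but by -0.40 in batch 1 and 0.10 in batch 2, so its sign depended on the batch. Over the 16 S-phase genes the median difference was -0.05 and 6 were positive. Over the 22 mitotic genes the median was -0.02 and 11 were positive, beside a median of -0.01 and 46.7% positive over all features.

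Before training, 0 of 38 genes differed between trained and untrained pools at an adjusted p of 0.05, where 0% of all features did, and 1 of 38 at an unadjusted p under 0.05, where 4.2% did. That gene was Mcm6, a subunit of the MCM2 to MCM7 helicase, which read 2.31, 2.23 and 2.38 in trained pre, against 2.71, 2.60 and 2.67 in untrained pre, and 2.52, 2.29 and 2.50 in trained post against 2.34, 2.35 and 2.41 in untrained post. The trained pre and untrained pre values of Mcm6 did not overlap (difference -0.36, SE 0.11; limma adjusted p = 0.999). Mcm5, of the same helicase, differed the other way by 0.28 (SE 0.15; limma adjusted p = 0.999). It read 1.88, 1.57 and 1.49 in trained pre, against 1.19, 1.59 and 1.34 in untrained pre, and 1.69, 1.56 and 1.52 in trained post against 1.33, 1.51 and 1.58 in untrained post. Birc5, survivin, a subunit of the chromosomal passenger complex, read 1.09, 1.17 and 0.91 in trained pre, against 1.67, 1.13 and 1.26 in untrained pre, and 1.54, 1.18 and 1.42 in trained post against 1.64, 1.49 and 1.56 in untrained post. The pre groups of Birc5, a dim probe set, overlapped (difference -0.30, SE 0.16; limma adjusted p = 0.999). Median differences before training were -0.09 for S-phase genes (6 of 16 positive) and -0.08 for mitotic genes (6 of 22 positive), beside -0.01 and 48% positive over all features.

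Between post and pre pools over both groups, Mki67 and Cdc6 rose, and they were the only members past the threshold. In limma, 2 of 38 genes were higher at an adjusted p of 0.05 and 0 of 38 lower. Over all features 3.21% passed, 1.3% higher and 1.92% lower. Among the 13691 features at or above the median level, where most members lie, 338 were higher and 498 lower. The 1 S-phase and 1 mitotic gene are too few to be read as a result about the 38 genes. At an unadjusted p under 0.05 the count was 8 of 38. At that level 15.5% of all features passed, and 23.4% of features at or above the median level. In these bulk pools, fewer cells of a type and less RNA per cell cannot be told apart.

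Mki67 read 6.57, 6.92 and 7.11 in trained post pools and 7.26, 7.04 and 7.01 in untrained post pools, against 6.23, 6.42 and 6.30 in trained pre and 6.75, 6.47 and 6.41 in untrained pre. All 3 post values lay above all 3 pre values within each group, and only trained post 1 lay below the highest pre value, that of untrained pre 1. The mean was 6.87 ± 0.28 in trained post and 7.10 ± 0.14 in untrained post, against 6.32 ± 0.10 in trained pre and 6.54 ± 0.18 in untrained pre (SD, n = 3 each). Over both groups Mki67 was 1.47-fold higher, a difference of 0.55 (SE 0.11; limma adjusted p = 0.0196), and 0.48 in batch 1 and 0.71 in batch 2. The call did not hold in batch 1 alone, nor without any 1 of the arrays untrained pre 2, untrained pre 3, untrained post 1, trained pre 3 and trained post 3. Its difference stayed between 0.47 and 0.63 when single arrays were left out, with a limma adjusted p of at most 0.0635.

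Cdc6 loads the MCM helicase onto replication origins. It read 2.11, 1.83 and 2.11 in trained post and 2.12, 2.32 and 2.37 in untrained post, against 1.74, 1.90 and 1.52 in trained pre and 1.60, 1.63 and 1.86 in untrained pre. The untrained groups did not overlap, while trained post 2 lay below trained pre 2. Cdc6 was 1.35-fold higher over both groups, a difference of 0.43 (SE 0.10; limma adjusted p = 0.039), and 0.38 in batch 1 and 0.55 in batch 2. Its call was lost without any 1 array other than trained pre 2 and trained post 2, in batch 1 alone, and with arrays centred on their medians (limma adjusted p = 0.0506), so it stood close to the threshold.

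**Figure D2:**
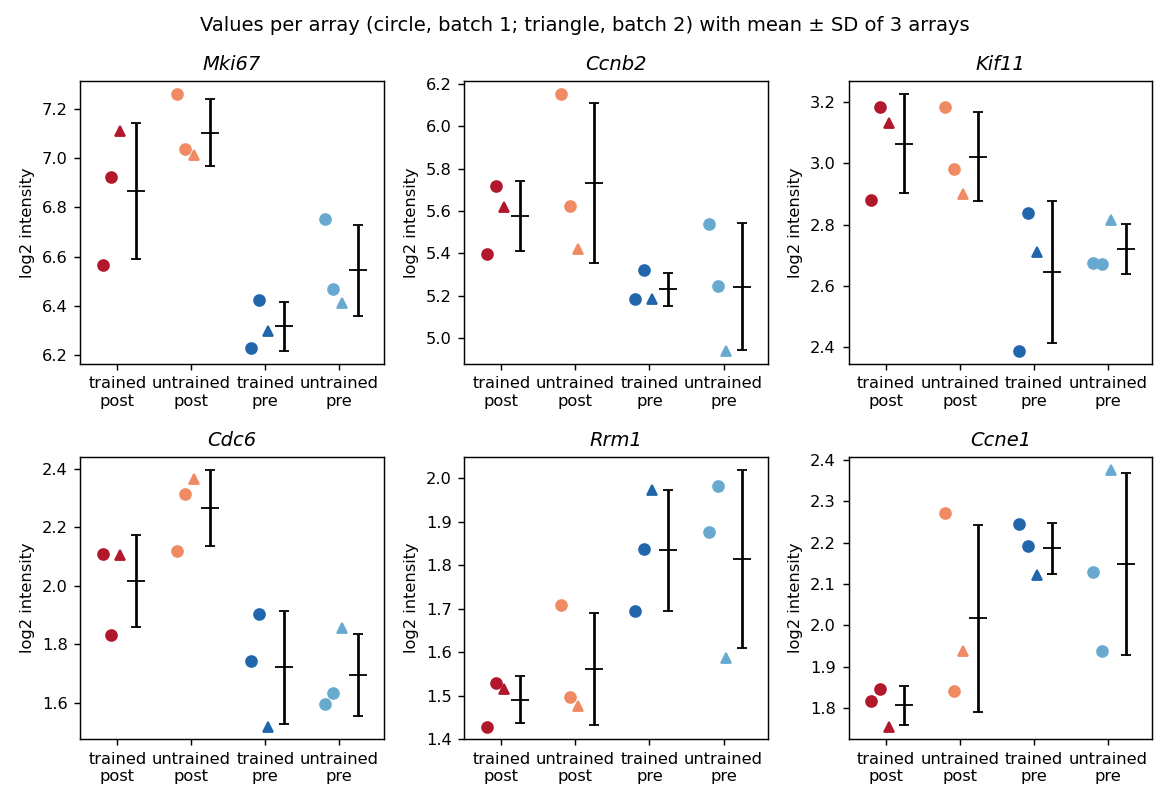
Log2 intensity of 6 proliferation genes in each pool (circles, batch 1; triangles, batch 2), with mean and SD of 3 arrays, in trained post, untrained post, trained pre and untrained pre groups. The axes do not start at 0 and differ between genes. Post pools of Kif11 lie above all pre pools, whereas those of Mki67, Ccnb2, Cdc6, Rrm1 and Ccne1 overlap with pre pools.

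Kif11, the motor that pushes spindle poles apart, read 2.88, 3.18 and 3.13 in trained post and 3.18, 2.98 and 2.90 in untrained post, against 2.39, 2.84 and 2.71 in trained pre and 2.67, 2.67 and 2.82 in untrained pre. It was the only 1 of the 38 genes whose 6 post and 6 pre values did not overlap, where 2.3% of all features did not, and its difference of 0.36 (SE 0.10) missed the threshold (limma adjusted p = 0.0921). Ccnb2, cyclin B2, a partner of CDK1, read 5.40, 5.72 and 5.62 in trained post and 6.15, 5.62 and 5.42 in untrained post, against 5.19, 5.32 and 5.19 in trained pre and 5.54, 5.25 and 4.94 in untrained pre. The trained groups of Ccnb2 did not overlap, whereas untrained pre 1 lay above untrained post 3. With Birc5 and Aurkb (Aurora B, the kinase of the chromosomal passenger complex), these made up the 6 members with higher values at an unadjusted p under 0.05. Aurkb read 2.42, 2.19 and 2.37 in trained post and 2.19, 2.32 and 2.42 in untrained post, against 1.96, 2.32 and 1.95 in trained pre and 2.07, 2.00 and 2.10 in untrained pre. Trained pre 2 alone among the pre pools reached the range of the post pools.

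The other 2 had lower values and belong to the S-phase set. Rrm1, the large subunit of ribonucleotide reductase, read 1.43, 1.53 and 1.51 in trained post and 1.71, 1.50 and 1.48 in untrained post, against 1.69, 1.84 and 1.97 in trained pre and 1.88, 1.98 and 1.59 in untrained pre (difference -0.30, SE 0.10; limma adjusted p = 0.134). The trained groups of Rrm1 did not overlap and the untrained groups did. Ccne1, cyclin E1, the partner of CDK2 at the start of S phase, read 1.82, 1.85 and 1.75 in trained post and 2.27, 1.84 and 1.94 in untrained post, against 2.25, 2.19 and 2.12 in trained pre and 2.13, 1.94 and 2.38 in untrained pre. Only the trained groups of Ccne1 were apart.

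Across the mitotic set, 15 of 22 differences over both groups were positive with a median of 0.11 (0.10 in batch 1 and 0.24 in batch 2). That median was 0.0528 without untrained pre 3 and 0.0648 without trained post 3. The S-phase set had 6 of 16 positive and a median of -0.04 (-0.04 in batch 1 and -0.08 in batch 2), and all features had 53.6% positive and a median of 0.01. Mitotic differences ranged from -0.17 to 0.55, the lowest being that of Cdc20, the activator of the anaphase-promoting complex. S-phase differences ranged from -0.30 to 0.43. The MCM subunits did not move as a block. Mcm2, Mcm3, Mcm6 and Mcm7 had negative differences, Mcm4 and Mcm5 positive ones, and none passed the test.

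**Figure D3:**
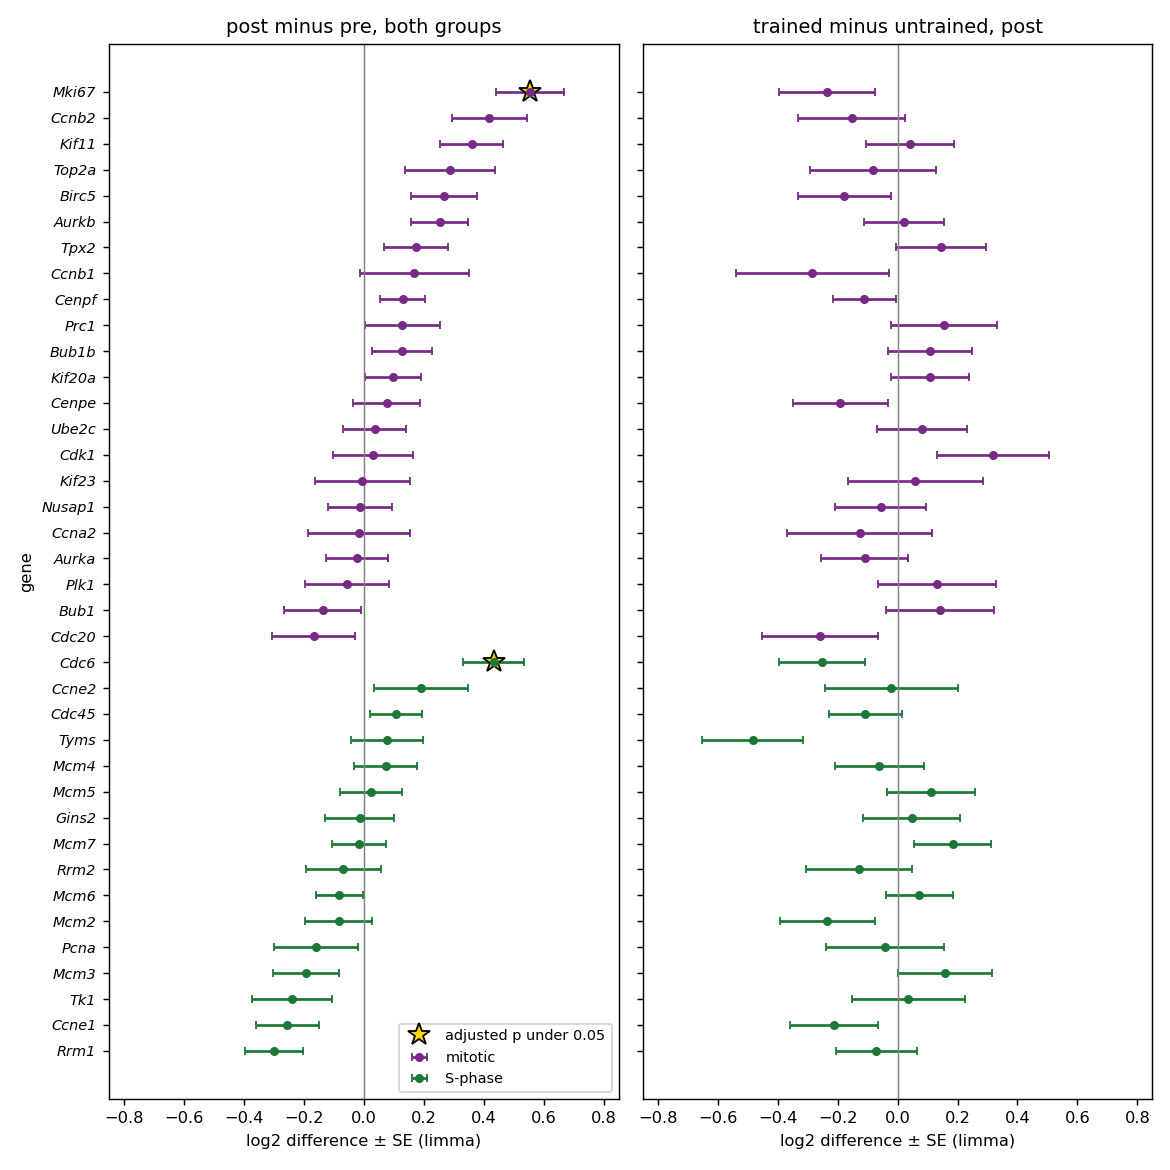
Log2 difference with its SE from limma for the 38 genes, post minus pre over both groups (left) and trained minus untrained after training (right), mitotic genes above and S-phase genes below in the same order. Stars mark Mki67 and Cdc6, at an adjusted p under 0.05. Most mitotic genes lie right of 0 on the left, and genes lie on both sides of 0 on the right.

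Within each group, no member passed the threshold for the change over the period. In untrained blood 0 of 38 passed at an adjusted p of 0.05 in limma, where 0.676% of all features did, and 4 of 38 had an unadjusted p under 0.05, where 12.6% did. These were Cdc6 (0.57, SE 0.14; adjusted p = 0.0948), Mki67 (0.56, SE 0.16; adjusted p = 0.141), Ccnb2 (0.49, SE 0.18; adjusted p = 0.259) and Mcm6 (-0.30, SE 0.11; adjusted p = 0.274). In trained blood 0 of 38 passed, where 0.281% of all features did, and 4 of 38 had an unadjusted p under 0.05, where 10.4% did. These were Mki67 (0.55, SE 0.16; adjusted p = 0.183), Kif11 (0.42, SE 0.15; adjusted p = 0.296), Ccne1 (-0.38, SE 0.15; adjusted p = 0.368) and Rrm1 (-0.34, SE 0.14; adjusted p = 0.381). Mki67 thus had nearly the same difference in both groups. The comparison over both groups uses the same arrays as these 2. The mitotic median was 0.11 in trained blood (18 of 22 positive) and 0.09 in untrained blood (16 of 22 positive), beside medians of 0.00 and 0.02 over all features. The S-phase median was -0.02 in trained blood (8 of 16 positive) and -0.06 in untrained blood (7 of 16 positive).

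Whether the change over the period differed between trained and untrained blood was tested by the interaction. None of the 38 genes passed at an adjusted p of 0.05 in limma, where 0.00365% of all features did, and 2 of 38 had an unadjusted p under 0.05, where 5.67% did. Cdk1 read 2.07, 2.35 and 2.54 in trained post against 1.97, 2.02 and 1.94 in trained pre, and 2.06, 1.78 and 2.17 in untrained post against 2.21, 2.69 and 1.98 in untrained pre. Its trained post pools were all above its trained pre pools and its untrained groups overlapped (interaction 0.63, SE 0.27; limma adjusted p = 0.875). For Mcm6 the interaction was 0.43 (SE 0.16; limma adjusted p = 0.85), with the untrained pre pools being the highest of the 4 groups. Mcm7, a further helicase subunit, read 2.62, 2.41 and 2.21 in trained post against 2.29, 2.25 and 2.31 in trained pre, and 2.31, 2.25 and 2.13 in untrained post against 2.24, 2.48 and 2.44 in untrained pre. Both pairs overlapped for Mcm7 (interaction 0.29, SE 0.18; limma adjusted p = 0.92). Cdc20 read 2.37, 2.37 and 2.49 in trained post against 3.21, 2.52 and 2.53 in trained pre, and 2.68, 2.82 and 2.50 in untrained post against 2.49, 2.53 and 2.95 in untrained pre. Its trained post pools were at or near its lowest values (interaction -0.36, SE 0.27; limma adjusted p = 0.938), but the interaction was -0.74 in batch 1 and 0.41 in batch 2.

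Other genes of the same pathways were taken from 3 lists. The replication list held 45 further genes (origin, polymerase, primase, clamp loader and Okazaki fragment factors). The mitosis list held 60 further genes (kinetochore, motor, condensin and cytokinesis factors). Between post and pre over both groups, 0 of either list were higher and 0 lower at an adjusted p of 0.05 in limma. At an unadjusted p under 0.05 in either direction the counts were 5 of 45 and 12 of 60, where 15.5% of all features passed. Higher values at that level were found for 10 of the 60 mitotic genes and for 2007 of all 27381 features. The median difference was 0.05 for replication and 0.12 for mitosis, with 49 of 60 mitotic genes positive. Among the replication genes the smallest p-values were those of Rpa1 (-0.38, SE 0.10; limma adjusted p = 0.074), of the protein that coats single-stranded DNA, and among the positive ones of Ung (0.34, SE 0.13; limma adjusted p = 0.199), which removes uracil from DNA. Among the mitotic genes they were those of Ect2 (0.53, SE 0.16; limma adjusted p = 0.101), the exchange factor that starts the cleavage furrow, and Mad2l1 (-0.43, SE 0.12; limma adjusted p = 0.08), a spindle checkpoint protein. Ect2 passed after quantile normalization, with an adjusted p of 0.0465. For trained post against untrained post pools, 0 genes of either list passed in limma. At an unadjusted p under 0.05 it was 2 of 45 and 5 of 60, where 6.41% of all features passed. The replication median was 0.08 with 32 of 45 positive, against 6 of the 16 S-phase genes. The mitosis median was 0.00 with 30 of 60 positive, where 46.7% of all features were.

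Of 37 regulators that stand above both sets (cyclins D, CDK inhibitors, E2F and pocket proteins, MYC and antiproliferative factors), 3 were higher and 4 lower over both groups at an adjusted p of 0.05 in limma, where 1.3% of all features were higher and 1.92% lower. Cdkn1a encodes p21, the inhibitor of cyclin-dependent kinases that p53 induces. It read 3.56, 4.16 and 3.48 in trained post and 4.37, 4.07 and 3.71 in untrained post, against 2.63, 2.61 and 2.51 in trained pre and 2.66, 2.40 and 3.12 in untrained pre. All 6 post pools lay above all 6 pre pools, and the rise was 2.35-fold (1.24, SE 0.16; limma adjusted p = 0.00297), with 1.46 in batch 1 and 0.78 in batch 2. Ccnd3, cyclin D3, which red cell precursors use to set their number of divisions, read 5.32, 5.48 and 5.50 in trained post and 5.51, 5.33 and 5.49 in untrained post, against 4.91, 4.78 and 4.72 in trained pre and 5.07, 5.13 and 4.96 in untrained pre. It rose 1.42-fold without overlap (0.51, SE 0.08; limma adjusted p = 0.00816). E2f1, the activator of the S-phase genes, read 2.09, 2.21 and 2.11 in trained post and 2.08, 2.12 and 2.31 in untrained post, against 1.93, 1.50 and 1.68 in trained pre and 1.85, 1.79 and 1.78 in untrained pre. It rose 1.32-fold, again without overlap (0.40, SE 0.09; limma adjusted p = 0.0399), and 11 of the 12 arrays each took the call away when left out, the exception being trained pre 1, as did the limma trend.

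The regulators that fell were Btg1 and Btg2, which restrain division, and Cdk4 and Myc, which promote it. Btg1 read 4.18, 4.20 and 3.42 in trained post and 3.31, 3.58 and 3.66 in untrained post, against 4.55, 5.04 and 4.99 in trained pre and 4.57, 5.19 and 4.94 in untrained pre. No post pool reached a pre pool, and Btg1 was 2.22-fold lower (-1.15, SE 0.16; limma adjusted p = 0.00432). Btg2 was 1.65-fold lower (-0.72, SE 0.14; limma adjusted p = 0.0164), with -0.57 in batch 1 and -1.02 in batch 2. Cdk4, the partner of D cyclins, was 1.54-fold lower (-0.62, SE 0.13; limma adjusted p = 0.0233) and Myc, a transcription factor of growth, 1.53-fold lower (-0.61, SE 0.14; limma adjusted p = 0.0377). Cdk4 lost its call without any 1 of 5 arrays (untrained pre 1 and 3, trained pre 1 and 3, trained post 3) and Myc without any 1 of 8 and after quantile normalization, and in batch 1 alone Ccnd3, E2f1, Btg2, Cdk4 and Myc were not past the threshold. Between trained post and untrained post pools 0 of the 37 regulators passed in limma, and 8 of 37 had an unadjusted p under 0.05, where 6.41% of all features did. The smallest p-value was that of E2f4, a repressing E2F of resting cells that is needed for red cell production in mice, at 4.55, 4.42 and 4.53 in trained post against 3.77, 4.03 and 3.71 in untrained post (0.66, SE 0.15; limma adjusted p = 0.496). These groups of E2f4 did not overlap.

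**Figure D4:**
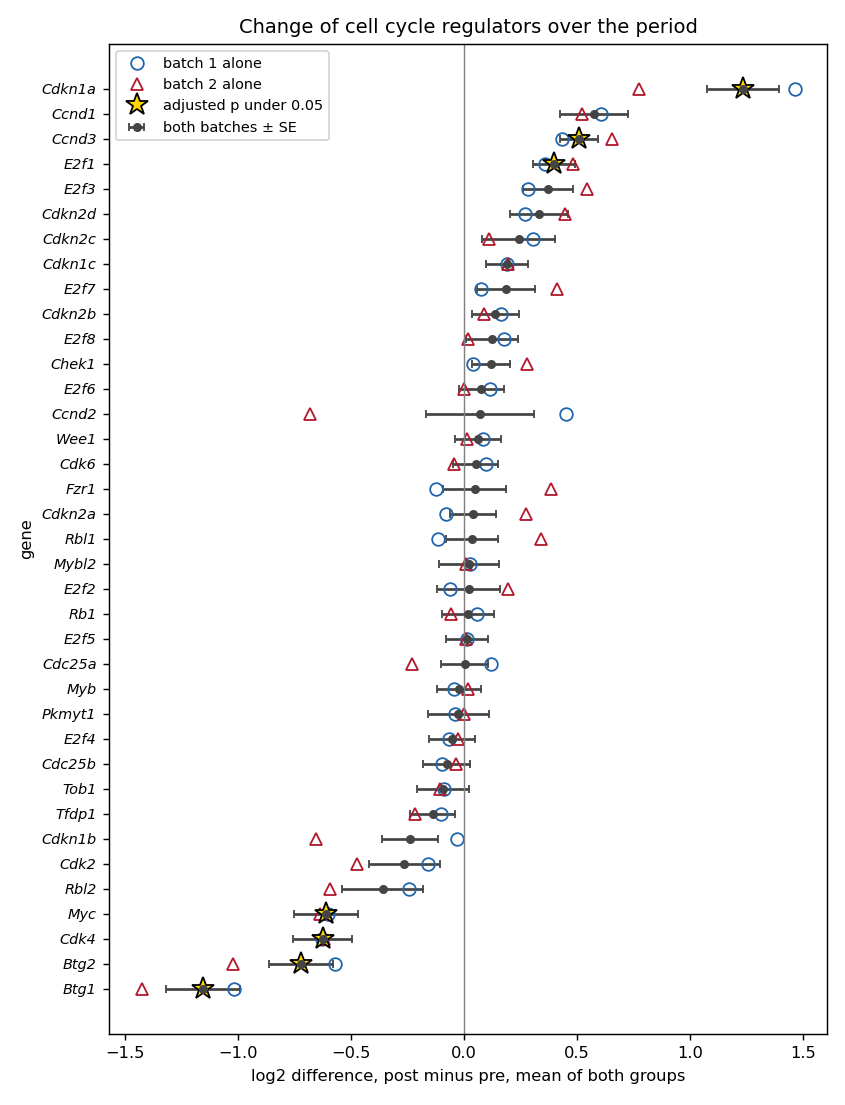
Log2 difference, post minus pre over both groups, for 37 cell cycle regulators from limma (black points with SE, both batches), with the differences of batch 1 alone (blue circles) and batch 2 alone (red triangles). Stars mark Cdkn1a, Ccnd3 and E2f1 on the right and Myc, Cdk4, Btg2 and Btg1 on the left, at an adjusted p under 0.05.

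The mean deviation of the mitotic genes from their own means was computed for each array. It was highest in untrained post 1 (0.17), trained post 3 (0.15) and untrained pre 1 (0.10), and lowest in trained pre 1 (-0.13) and untrained pre 3 (-0.11). In trained pre 2 and untrained pre 3, 4 of 22 mitotic genes lay above their means. The S-phase deviation ranged from -0.10 in trained post 3 to 0.07 in untrained post 1, so trained post 3 had high mitotic and low S-phase values at once. The 45 further replication genes went the other way, with their highest deviation in trained post 3 (0.11, with 33 of 45 above their own means).

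Among the blood cell markers, those of erythroid cells shared their 3 highest arrays and their lowest array with the 22 mitotic genes. The deviation of 27 erythroid genes was highest in trained post 3 (0.29), untrained pre 1 (0.23) and untrained post 1 (0.18) and lowest in trained pre 1 (-0.31). These are also the 3 highest arrays and the lowest array of the 22 mitotic genes. Other arrays matched less. Untrained pre 3 was at -0.11 for mitotic genes but -0.04 for erythroid genes, and untrained post 2 at -0.002 and -0.11. The 60 further mitotic genes matched the erythroid genes only in part. They were highest in untrained post 1 (0.17) and trained post 3 (0.11), but untrained pre 1 was at -0.0019. Their lowest array was trained pre 3 (-0.11), with trained pre 1 at -0.098. All 27 erythroid genes lay above the median of all features, with Slc4a1, the red cell anion exchanger, between 9.30 and 10.1 over the 12 arrays. Between post and pre over both groups 1 of the 27 erythroid genes was higher and 0 lower at an adjusted p of 0.05 in limma (median 0.09, with -0.02 in batch 1 and 0.30 in batch 2). The mean level of the erythroid list was 6.04 to 6.39 in trained post and 5.99 to 6.28 in untrained post, against 5.79 to 6.01 in trained pre and 5.99 to 6.33 in untrained pre.

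Some markers of other cells changed as well. At an adjusted p of 0.05 in limma, 15 of 16 B cell genes were lower in post pools (median -1.23), with all 16 negative. Over all features 1.3% were higher and 1.92% lower at that threshold. The mean B cell level was 3.99 to 5.18 in trained post and 3.59 to 4.61 in untrained post. It was 5.63 to 5.86 in trained pre and 5.62 to 5.82 in untrained pre. Of 18 platelet and megakaryocyte genes 11 were higher (median 0.61), and of 11 marrow progenitor genes 4 were higher (median 0.18). Of 10 mature neutrophil genes 4 were lower (median -0.83), and all 10 differences were negative. At an unadjusted p under 0.05 the counts in these directions were 16 of 18, 5 of 11 and 10 of 10. Over all features 15.5% passed that level in either direction. Flt3 of the progenitor list and Xcr1 and Batf3 of the dendritic list, defining markers of their cells, had medians below that of all features. Of the T cell, NK cell and monocyte genes, 1 of 16, 1 of 11 and 1 of 10 were lower. The counts higher were 0, 0 and 1. At an unadjusted p under 0.05, 8, 4 and 2 were lower and 0, 0 and 1 higher, and 15 of 16 T cell differences were negative. Of the plasma cell, neutrophil precursor and dendritic cell genes 0 passed in limma, with 3, 1 and 0 at an unadjusted p under 0.05. The part of these markers in the changes of Mki67, Cdc6, Cdkn1a, Btg1 and the other genes was not tested.

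**Figure D5:**
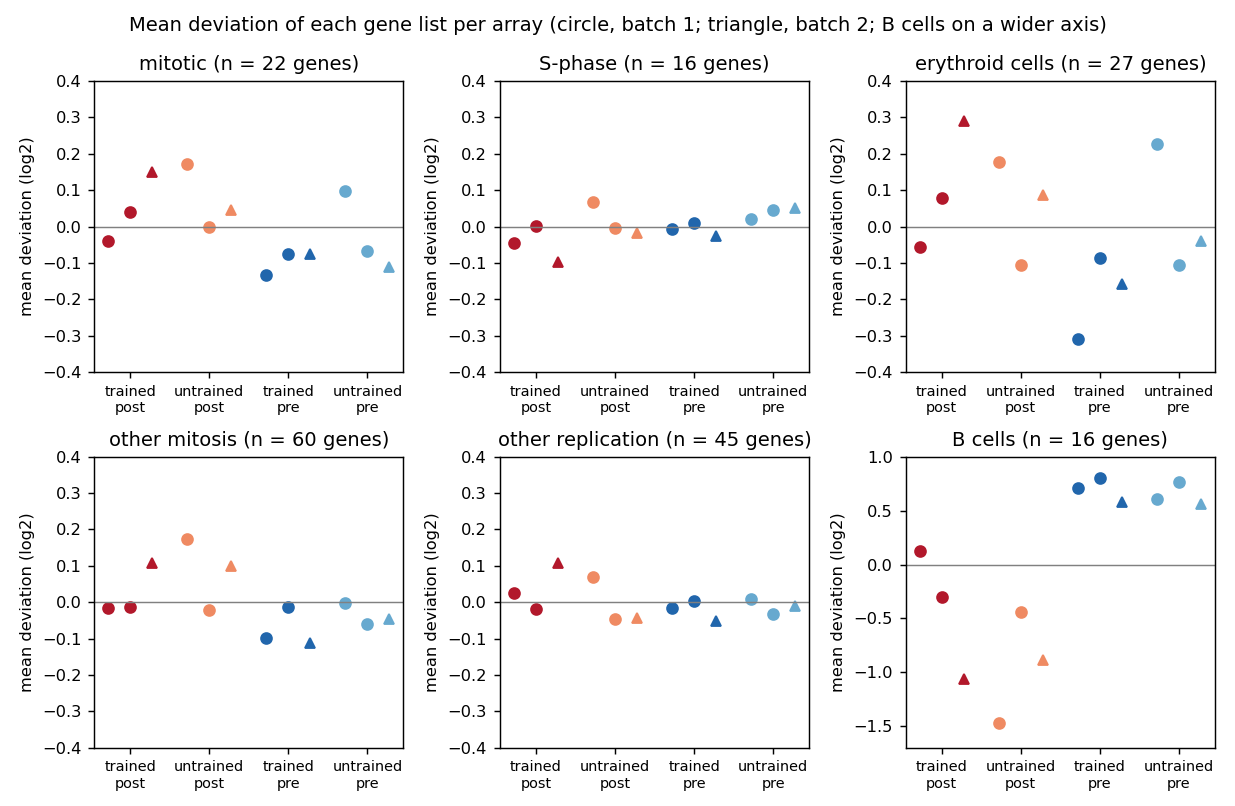
Mean deviation from each gene's own mean, in log2 units, of 6 gene lists in each pool (circles, batch 1; triangles, batch 2) of the trained post, untrained post, trained pre and untrained pre groups. The B cell panel has a wider axis. The mitotic and erythroid panels share their high pools, untrained post 1, trained post 3 and untrained pre 1, while S-phase deviations stay between -0.10 and 0.07. In the panel of other mitosis genes, untrained pre 1 lies at -0.0019.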

How the data were processed

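The authors hybridised pooled blood RNA to Mouse Gene 2.0 ST arrays and deposited log2 values, made by RMA (background correction, quantile normalization, summary per Entrez gene) with affy 1.62.0 in R 3.6.0, per the submitters' processing notes. The sources used here do not say whether the authors removed batch effects first. The deposited log2 values of all 27381 features on 12 arrays were used without a filter. Symbols came from the platform table (26794 features) and from RefSeq by Entrez number (564 features). The members and all 16 lists were chosen with earlier results of these data known.

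A model of group means plus batch (7 residual degrees of freedom) was fitted by lmFit and eBayes of limma 3.58.1, under R 4.3.3. The 6 contrasts were tested two-sided, p-values were adjusted after Benjamini and Hochberg over the 27381 features, and 0.05 was the threshold. The fit was tested on simulated data. Contrasts that share arrays are not independent. A list was described by counts and medians only. Values in every array are given for the 5 genes per set with the highest means, those past the threshold, and the 2 with the smallest p per contrast. Aurkb was added after its values were seen. From each pathway list the genes past the threshold (at most 4 per direction) or the 1 with the smallest p per direction were eligible. The number of arrays limits the precision. Alternatives were no batch term, a replicate block, batch 1 or batch 2 alone, only the arrays compared, arrays centred on their medians, quantile normalization, a filter keeping features whose mean reached the median, limma trend, array weights, and each array left out.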

Additional observations from a re-analysis of the deposited data

How the results depend on the processing

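The count of members past the threshold between post and pre over both groups was 2, 0 in batch 1 alone, 1 with arrays centred on their medians, and 0 to 2 when 1 array was left out. In every other comparison the count stayed 0 under all alternatives run. With a replicate block the count over both groups was 2. Of 18 same-numbered pairs of arrays, 2 had deviations that correlated above 0.1 (from -0.190 to 0.135). Such correlations cannot tell whether the pools share animals or littermates. The block only shows that the count kept its size.

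The S-phase median moved after training to -0.0836 with quantile normalization and -0.0094 with centred arrays (-0.1000 to -0.0028 with 1 array left out), and before training only with an array left out (-0.1123 to 0.0048). In untrained blood over the period it was -0.0142 in batch 1, -0.0126 over features at or above the median, -0.0055 after quantile normalization and -0.0991 with centred arrays (-0.1270 to 0.0073), and in trained blood -0.0595 over the filtered features, 0.0115 in batch 2 and 0.0123 after quantile normalization (-0.0381 to 0.0222). Over both groups it was -0.0788 in batch 2, and for the interaction 0.0379 in batch 1, 0.1185 in batch 2, -0.0899 over filtered features and 0.0146 with centred arrays (-0.0916 to 0.0553). The mitotic median after training was -0.0667 in batch 1, 0.0985 in batch 2, -0.0565 over the filtered features, -0.0843 after quantile normalization and 0.0235 with centred arrays (-0.0880 to 0.0379 with 1 array left out), so its direction was not settled. In batch 2 it was 0.0646 before training (-0.1280 to 0.0149), 0.3260 in trained blood over the period (0.1088 to 0.2130) and 0.2409 over both groups (0.0528 to 0.1335). In untrained blood over the period it was 0.1353 in batch 2 and 0.0452 with centred arrays (0.0343 to 0.1546). For the interaction it was -0.0190 to 0.1310 with 1 array left out. Batch 2 holds 1 array per group and gives values without a test. Mki67 after training was 0.0962 in batch 2, and the Cdc20 interaction was 0.4086 there, both with the sign turned. The cause was not tested.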
